A study of Rattus norvegicus with 6 samples.

Results

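The 8 genes described here serve the uptake, storage and export of lipid in macrophages: Lpl, Fabp4, Pparg, Plin2, Soat1, Nr1h3, Abca1 and Abcg1. They were taken as every probe set annotated to one of these genes and to no other gene, which gave 15 of the 31042 probe sets compared and 8 of 14217 named genes. Lpl, Fabp4, Pparg and Nr1h3 had 1 probe set each, Plin2 and Soat1 had 2, Abcg1 had 3 and Abca1 had 4. For each gene the probe set with the brightest signal over all arrays leads, and the others follow it.

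RNA came from whole lung of Lewis rats, an inbred strain, with 3 animals in each group and 1 array per animal. The control animals breathed filtered air. The silica animals breathed silica dust (Min-U-Sil 5) at 6.2 mg/m3 for 6 hours a day on 5 days a week over 6 weeks. The sources used here give no sex or age, and no interval from the end of exposure to sampling. The lung surfactant gene Sftpc had signals between 19546 and 24855 on every array. In whole lung, more cells of a type and more RNA per cell cannot be told apart.

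Alveolar macrophages take up surfactant lipid and cell debris and must store it, burn it or return it. Lipoprotein lipase frees fatty acids, which carrier proteins move through the cell, and surplus fatty acid and sterol are esterified and packed into lipid droplets. Cholesterol leaves through the transporters ABCA1 and ABCG1, whose genes are targets of the oxysterol-sensing liver X receptors, while PPAR gamma, induced in these cells by GM-CSF, drives many genes of lipid handling. Cells that fill with droplets are called foamy macrophages and are a known feature of the silica-exposed lung.

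No probe set of the 8 genes passed the threshold of a limma adjusted p under 0.05, where 1.08% of all probe sets passed. Signals of 7 genes were nevertheless higher on average in silica and that of Abca1 was lower, by their brightest probe sets. The smallest adjusted p belonged to the droplet coat gene Plin2 (0.0886) and the next to the sterol esterification gene Soat1 (0.149). At an unadjusted p under 0.05 the limma fit gave 8 of the 15 probe sets, where 17.3% of all probe sets reached that level. They were 6 higher (9.35% of all probe sets) and 2 lower (7.94%). The 3 silica arrays lay apart from the 3 control arrays in 10 of the 15 probe sets, against 25.6% of all probe sets. Of these, 7 were higher (13.3% of all probe sets) and 3 lower (12.2%). By brightest probe set, 6 of the 8 genes reached an unadjusted p under 0.05, beside 19.9% of all genes, and 6 had groups apart, beside 31.4%. The median log2 fold change (silica minus control, on log2(signal + 16)) was 0.30 over the 8 brightest probe sets, beside 0.02 over the brightest probe sets of all genes. With the spread modelled as a trend with intensity and fitted robustly in limma, 5 of the 15 passed, where 6% of all probe sets did. Those 5 were the brightest probe sets of Plin2, Soat1, Lpl and Abcg1, which were higher, and the second brightest of Abca1, which was lower. With the dimmer 50% of probe sets left out 3 of them passed, those of Plin2 and Soat1 and the second of Abca1, where 10.8% of the probe sets kept did.

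**Figure D1:**
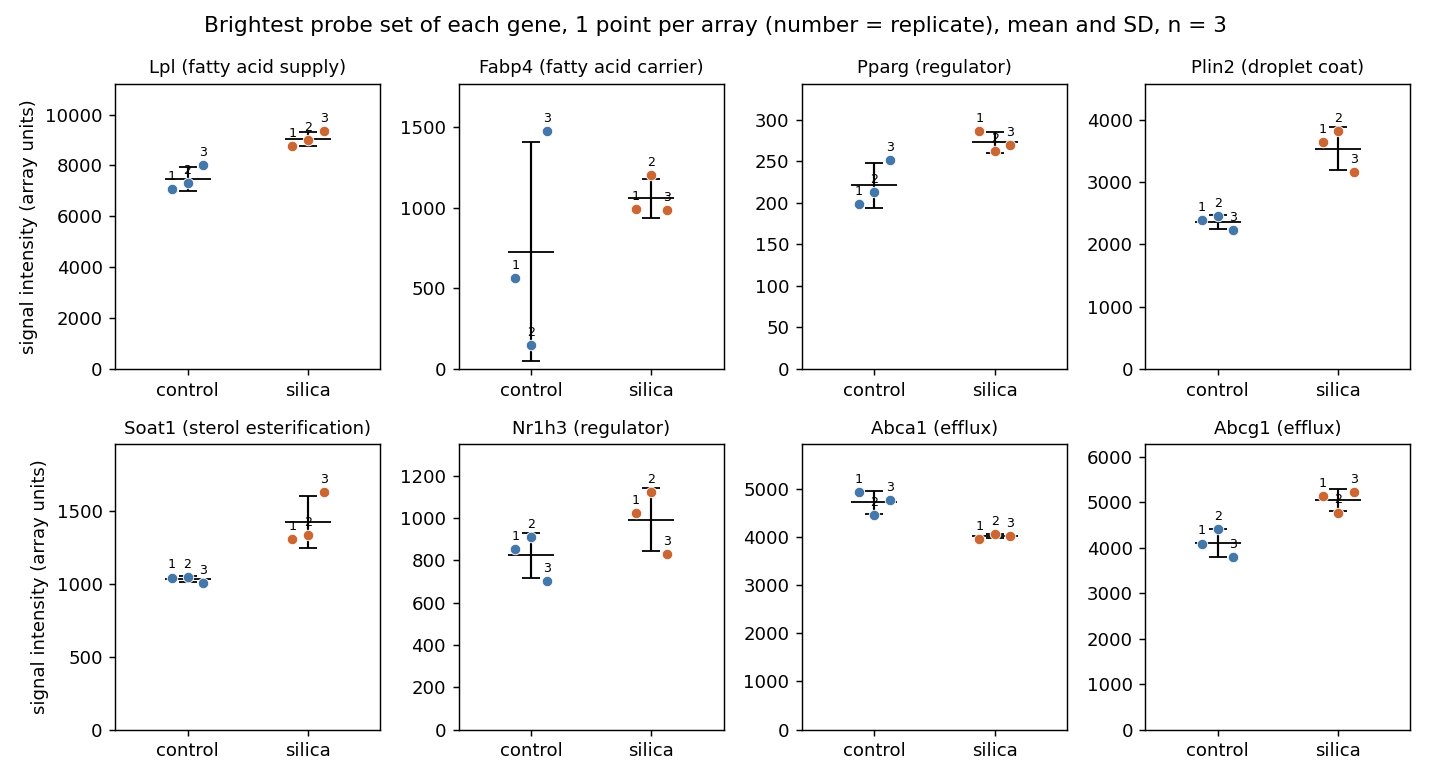
Signal intensity (array units, linear axis from 0) of the brightest probe set of each of the 8 genes, with 1 point per array, numbered by replicate, and the mean and SD of the 3 arrays of each group. Plin2 runs from 2231 to 2460 in control and from 3154 to 3816 in silica, while the 3 control values of Fabp4 spread from 146.9 to 1475.0.

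Plin2 encodes perilipin 2, the protein that coats lipid droplets in macrophages and many other cells. Its brightest probe set had signals of 2388, 2460 and 2231 in control replicates 1 to 3 and of 3642, 3816 and 3154 in silica replicates 1 to 3. All silica arrays lay above all control arrays, and the gap between the groups was wider than the range within either. The means were 2360 ± 117 and 3537 ± 343 (SD, n = 3). The difference on the log2 scale was 0.58 ± 0.11 (SE, adjusted p = 0.0886), or 1.49-fold. Of all probe sets, 9.8% had a log2 fold change further from 0. By brightest probe set that share was 1.4% for Fabp4 and 16.8% for Soat1. It lay between 32.0% and 43.2% for Lpl, Pparg, Nr1h3, Abca1 and Abcg1. The second Plin2 probe set had 1189, 1252 and 1069 in control and 1259, 1447 and 1335 in silica, again with no overlap. Its log2 fold change was 0.20 ± 0.11 (adjusted p = 0.408), smaller than that of the first, and 48.6% of all probe sets had one further from 0.

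Soat1 encodes sterol O-acyltransferase 1, which joins cholesterol to fatty acid for storage in droplets. Its brightest probe set had 1042, 1046 and 1006 in control and 1305, 1332 and 1627 in silica. The 3 control values had a coefficient of variation of 2.14%, and silica replicate 3 stood above the other silica arrays. The log2 fold change was 0.45 ± 0.12 (adjusted p = 0.149). A much dimmer Soat1 probe set had 145.5, 177.7 and 187.1 in control and 138.3, 217.0 and 301.5 in silica, so that the groups overlapped. Silica replicate 3 was again the highest array there, and the log2 fold change was 0.28 ± 0.27 (adjusted p = 0.638).

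Lpl encodes lipoprotein lipase, which releases fatty acids from triglyceride-rich lipoproteins and is made by macrophages and other lung cells. It had 7081, 7322 and 8002 in control and 8783, 8985 and 9349 in silica. The arrays did not overlap, and the step was 1.21-fold (log2 fold change 0.28 ± 0.10, adjusted p = 0.233). Gpihbp1, named after its values were seen, encodes the endothelial protein that anchors lipoprotein lipase on capillaries. Its signals ran the other way, with 1048, 1249 and 1211 in control and 624.3, 455.7 and 756.2 in silica (-0.94 ± 0.20 on the log2 scale, adjusted p = 0.0992). Of the 6 measured endothelial markers, a list that includes Gpihbp1, none passed and 5 had negative log2 fold changes, with a median of -0.15. Their summed signal ran from 31966 to 33691 in control and from 27129 to 31353 in silica. Such a sum, here and for the lists below, is weighted towards the brightest probe sets. The part of endothelial cells in the Lpl and Gpihbp1 values was not tested.

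Fabp4, the adipocyte fatty acid binding protein, is also made by macrophages and by capillary endothelium. It had 562.5, 146.9 and 1475.0 in control replicates 1 to 3 and 989.4, 1200.3 and 985.1 in silica replicates 1 to 3. The silica arrays were close together, while control replicate 2 was the lowest of the 6 arrays and control replicate 3 the highest, so the groups overlapped. The estimate of 1.04 ± 0.75 on the log2 scale (adjusted p = 0.528) had a 95% interval from -0.79 to 2.87 and was 0.20 without control replicate 2 and 1.80 without control replicate 3. The coefficient of variation was 93.3% in control and 11.6% in silica.

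Adipocyte markers are named here after their values were seen. The adipocyte hormone gene Adipoq had 210.7, 31.7 and 752.6 in the same control arrays, the same order as Fabp4, and the droplet gene Plin1 had 73.7, 38.1 and 266.3. In silica, Adipoq had 55.6, 59.9 and 9.2 and Plin1 52.9, 33.8 and 27.2, while the mean of Fabp4 was 1058 ± 123 (n = 3). Of the 6 measured adipocyte markers none passed and all had negative log2 fold changes, with a median of -0.58. Their summed signal ran from 1126 to 2496 in control and from 959.4 to 1225 in silica. Lipe weighs most in this sum on every array but control replicate 3. Lep, a defining marker, had signals between 2.6 and 35.7. Lipe and Cfd varied less. The lipase gene Lipe had 664.0, 729.1 and 668.4 in control and 679.0, 782.2 and 517.7 in silica, with control replicate 2 the highest control array. Cfd, which encodes the protease adipsin, had 364.1, 286.1 and 569.0 against 346.6, 279.4 and 358.4, in the same control order as Fabp4. The part of adipose tissue in the Fabp4 signals of either group, and in their spread, was not tested.

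**Figure D2:**
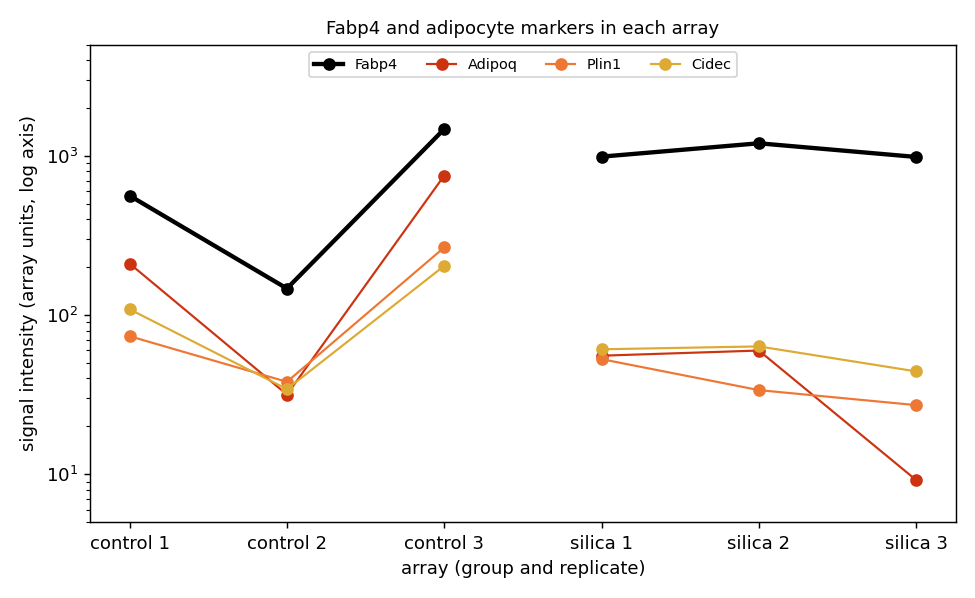
Signal intensity (array units, log axis) of Fabp4 and of 3 of the 6 measured adipocyte markers, Adipoq, Plin1 and Cidec, chosen after their values were seen, in each of the 6 arrays, with lines joining the arrays of a group only to guide the eye. In control all 4 genes are lowest in replicate 2 and highest in replicate 3, while in silica Fabp4 is between 985.1 and 1200.3 and these 3 markers are at most 63.6; the markers Lipe and Cfd, not drawn, reach 782.2 and 358.4 there.

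Pparg encodes PPAR gamma, the nuclear receptor that fatty acids activate. Its probe set had 198.2, 212.3 and 251.5 in control and 286.0, 262.1 and 269.6 in silica. The lowest silica array lay just above the highest control array, and the difference was 1.22-fold (log2 fold change 0.29 ± 0.12, adjusted p = 0.284). Nr1h3 encodes liver X receptor alpha, an oxysterol sensor. It had 854.9, 909.3 and 704.0 in control and 1024.7, 1123.0 and 828.0 in silica. Silica replicate 3 lay within the control range, and the estimate of 0.26 ± 0.16 on the log2 scale (adjusted p = 0.454) became 0.02 with a covariate for RNA quality. That covariate compares the 3-prime with the 5-prime control probe sets of beta-actin and GAPDH (mean log2 ratio) and lay between 1.00 and 1.23 in control and between 1.15 and 1.67 in silica. With it the other 7 genes kept their sign, from -0.22 for Abca1 to 1.54 for Fabp4. None passed, and 0 of all probe sets did.

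The transporter genes Abca1 and Abcg1 are the standard targets of liver X receptors, which bind direct repeats of a short half-site separated by 4 bases. RefSeq promoter windows of the rat assembly GRCr8, from 250 bases before to 50 after a start site, were at hand for 5 of the 8 genes, namely Abca1, Nr1h3, Pparg, Plin2 and Soat1, with 7 windows in all. The pattern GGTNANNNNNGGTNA, which leaves free the spacer and the first and the fifth base of each half-site of 6 bases, was searched on both strands and found in 0.675% of 33469 windows. It occurred in 1 of the 7 windows, that of Abca1, from 70 to 56 bases before the start. The matching pattern with the half-sites separated by 1 base, GGTNANNGGTNA, as bound by PPAR gamma and with the same bases left free, was in 0.863% of all windows and in none of the 7. A match is a stretch of letters and not a measured binding site. The Abca1 stretch (GRCr8 chr5:72596522-72596550, gene on the minus strand) is shown because Abca1 is the gene with lower signals, with the repeat in capitals on the gene strand and then on the opposite strand, where it reads as the pattern is written.
Abca1 gene strand: cagcgttTGACCGGTAGTAACCccggcgc
Abca1 opposite strand: gcgccggGGTTACTACCGGTCAaacgctg

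Abca1 encodes the transporter that hands cholesterol and phospholipid to apolipoprotein A-I. Its brightest probe set had 4930, 4455 and 4757 in control and 3961, 4051 and 4024 in silica. The silica arrays had a coefficient of variation of 1.16% and all lay below the lowest control array. The log2 fold change was -0.23 ± 0.09 (adjusted p = 0.282), or 0.852 of the control level. The second Abca1 probe set had 2032, 1796 and 1799 in control and 1336, 1466 and 1501 in silica (-0.38 ± 0.11 on the log2 scale, adjusted p = 0.163). The dimmest of the 4 had 298.4, 273.7 and 296.8 in control and 176.7, 221.4 and 273.6 in silica, where silica replicate 3 all but met control replicate 2 (log2 fold change -0.37 ± 0.16, adjusted p = 0.321). The remaining probe set overlapped between the groups, with 1261, 967.8 and 914.3 against 1016, 1151 and 995.8 (log2 fold change 0.02 ± 0.15, adjusted p = 0.962). Thus 3 of the 4 Abca1 probe sets were lower on every silica array and the other showed no such step.

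Abcg1 encodes the transporter that moves sterol to high-density lipoprotein and is needed for lipid clearance by alveolar macrophages. Its brightest probe set had 4091, 4401 and 3785 in control and 5127, 4772 and 5225 in silica. The arrays did not overlap (0.30 ± 0.10 on the log2 scale, adjusted p = 0.225). The second Abcg1 probe set had 443.5, 431.2 and 361.6 in control and 631.8, 492.1 and 541.6 in silica, also without overlap (log2 fold change 0.41 ± 0.14, adjusted p = 0.216). The dimmest had 243.2, 250.5 and 242.5 in control and 190.5, 245.7 and 269.2 in silica, and its silica arrays lay on both sides of the control arrays (log2 fold change -0.07 ± 0.14, adjusted p = 0.836). Probe sets of a gene thus disagreed in sign for both transporters.

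**Figure D3:**
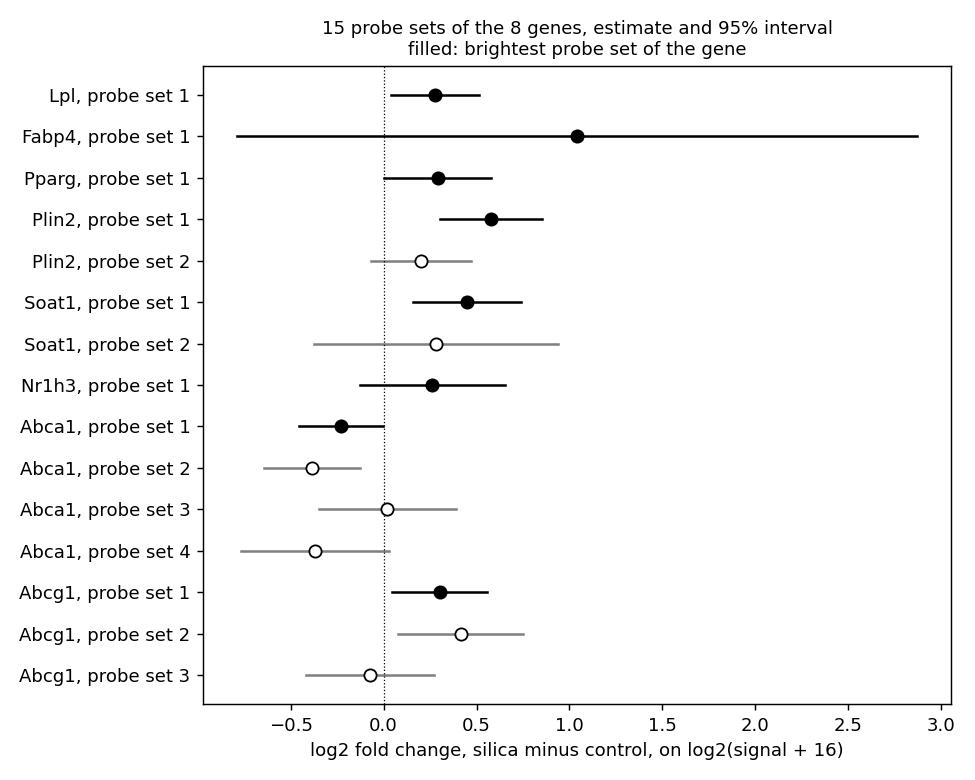
Log2 fold change (silica minus control, on log2(signal + 16)) of all 15 probe sets with 95% intervals that are not adjusted for the number of probe sets. Filled points are the brightest probe set of each gene. The 8 filled points run from -0.23 for Abca1 to 1.04 for Fabp4, whose interval is the widest, and 3 of the 4 Abca1 points lie below 0.

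The ratio of Abcg1 to Abca1 within an array, chosen after the values were seen and free of any scaling of the whole array, was 0.83, 0.99 and 0.80 in control and 1.29, 1.18 and 1.30 in silica. Only the change of this ratio between arrays has a meaning, since the signals of different probe sets are not on a common scale. All silica ratios lay above all control ratios. This follows from the signals already given, since by brightest probe set Abcg1 was higher and Abca1 lower on every silica array. It is therefore no separate result, and for each gene another probe set overlapped between the groups. No p is given for the ratio, since the pair was picked for its contrast.

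Of 10 measured macrophage markers 4 passed as higher and none as lower. By brightest probe set 1.67% of all genes passed and 1.55% passed as higher. The median log2 fold change of the 10 markers was 0.72. The complement genes C1qa and C1qb and the lysosomal glycoprotein gene Cd68 were the 3 with the smallest p, with 1.47, 1.30 and 0.88. The summed signal of the 10 markers ran from 13364 to 13875 in control and from 18954 to 21413 in silica. The step in Cd68, from 2764 ± 125 to 5138 ± 630 (n = 3, adjusted p = 0.0431), was 0.88 on the log2 scale beside 0.58 for Plin2, 0.45 for Soat1 and 0.30 for Abcg1, and these differences were not tested. The other 6 markers did not pass. Adgre1 (0.62) and Cd14 (0.82) were nevertheless higher on every silica array. Csf1r (0.10), Mertk (0.11), Mrc1 (0.03) and Cd163 (-0.45) overlapped between the groups. Alternatives for these calls were added after the data were seen. With the replicate number as a block or with the RNA quality covariate, 1 and 0 of all probe sets passed. None of the 4 macrophage calls remained there. None remained with any single array left out, where at most 12 of all probe sets passed. Within an array, the ratio of Plin2 to Cd68 was 0.88, 0.85 and 0.84 in control and 0.78, 0.65 and 0.65 in silica, lower on every silica array. The ratio of Plin2 to Csf1r, the receptor for macrophage colony-stimulating factor, was 1.03, 1.03 and 0.92 in control and 1.68, 1.38 and 1.15 in silica, higher on every silica array. The direction of such a ratio thus differed with the marker. Over the 10 markers, the ratio of Plin2 was lower on every silica array for 4, higher on every one for 3 and overlapping for 3. The counts were the same for Soat1, and for Abcg1 they were 5 lower, 2 higher and 3 overlapping. These ratios were chosen after the values were seen. Their directions largely follow from the changes of the genes and of the markers, so they are no separate result. The part of macrophage number in the signals of the 8 genes was not tested.

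**Figure D4:**
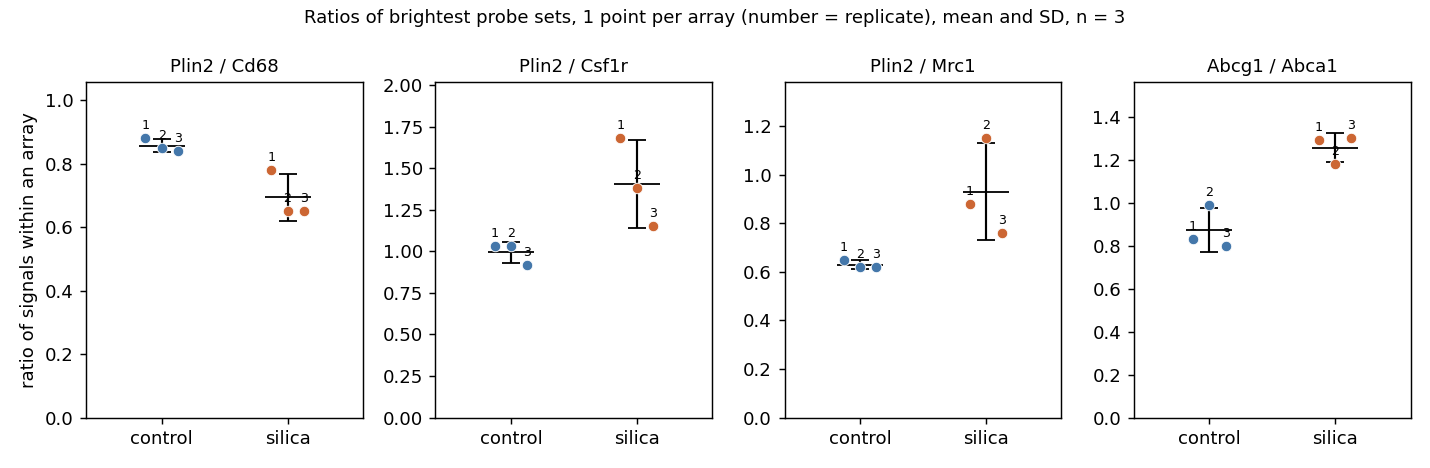
Ratios of the signals of brightest probe sets within an array (linear axis from 0), with 1 point per array, numbered by replicate, and the mean and SD of the 3 arrays of each group. The ratio of Plin2 to the macrophage marker Cd68 is lower in all silica arrays, and its ratios to the macrophage markers Csf1r and Mrc1 are higher in all of them. The ratio of Abcg1 to Abca1 is higher too, which follows from the signals of both genes lying apart in opposite directions.

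Of 28 genes of fatty acid uptake and lipid droplets 1 passed as higher and none as lower, beside the 1.67% of all genes that passed. The median log2 fold change was -0.04. The gene that passed was Fabp5, the fatty acid binding protein of epidermis and macrophages. It had 5692, 5053 and 5032 in control and 11360, 10383 and 8857 in silica. The groups were far apart (0.95 ± 0.13 on the log2 scale, adjusted p = 0.0428). The scavenger receptor and fatty acid transporter gene Cd36 had 2090, 1884 and 2653 against 1468, 1561 and 2154, with overlap (log2 fold change -0.36 ± 0.20, adjusted p = 0.412). For Angptl4, an inhibitor of lipoprotein lipase, the difference was -0.14 ± 0.32 on the log2 scale (adjusted p = 0.862). The groups lay apart in 9 of the 28 genes, 6 higher and 3 lower, a share close to the 31.4% of all genes. Besides Fabp5 and Gpihbp1 the genes apart are named here after their values were seen, and none of these passed. By brightest probe set Slc27a4, Abhd5 and Dgat1 had log2 fold changes of 0.49, 0.20 and 0.11. The triglyceride synthesis gene Dgat2 and the droplet protein gene Hilpda had log2 fold changes of 0.42 and 0.46, although the groups overlapped in a second Dgat2 probe set (0.11). G0s2, an inhibitor of triglyceride breakdown, had -0.52, and the lipoprotein receptor gene Vldlr had -0.56, and its other 3 probe sets were lower on every silica array too.

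For 18 measured genes of sterol uptake, hydrolysis, liver X receptors and efflux the median was 0.03. Again beside 1.67% of all genes, 1 of the 18 passed as higher and none as lower. This was Ch25h, cholesterol 25-hydroxylase, which makes an oxysterol that liver X receptors can sense. It had 433.5, 473.7 and 411.5 in control and 799.9, 819.8 and 894.7 in silica (0.91 ± 0.11 on the log2 scale, adjusted p = 0.0330). The lysosomal acid lipase gene Lipa, whose product frees cholesterol from ingested lipid, had 1994, 2322 and 1844 against 3299, 2915 and 2941, without overlap and without passing (log2 fold change 0.57 ± 0.12, adjusted p = 0.106). Apoe, a further liver X receptor target and cholesterol acceptor, had 7417 ± 481 in control and 7535 ± 708 in silica (n = 3), with a 95% interval of the log2 fold change from -0.26 to 0.30. The receptor genes Nr1h2 and Rxra had -0.09 and -0.19, with overlapping groups. Msr1, Npc1, Soat2 and Arl4c were not analysed here.

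Of 12 measured genes of PPAR receptors, coregulators and the GM-CSF axis 1 passed as higher and none as lower, beside the same 1.67%. The median was 0.03. Csf2ra, the alpha chain of the GM-CSF receptor, had 613.3, 618.5 and 522.7 in control and 1169.0, 1219.6 and 1100.3 in silica (0.98 ± 0.11 on the log2 scale, adjusted p = 0.0330). Csf2rb, its signalling chain, was dim, with 31.7, 27.5 and 16.6 against 53.8, 72.9 and 131.2, and did not pass (adjusted p = 0.128). Csf2, the gene of GM-CSF itself, had 137.7 ± 54.6 in control and 131.5 ± 47.0 in silica (n = 3). The calls of Fabp5, Ch25h and Csf2ra were each lost when any single array was left out, where at most 12 of all probe sets passed. Their log2 fold changes then stayed between 0.87 and 1.05, 0.86 and 0.96, and 0.90 and 1.02, in that order. T cell markers rose in 5 of 5 cases (1.55% of all genes passed as higher), with summed signals from 2063 to 2403 in control and from 4078 to 5282 in silica, and the part of immune cell number in these 3 calls was not tested. None of the 5 T cell calls remained with the replicate block or the RNA quality covariate, where 1 and 0 of all probe sets passed. They were also lost with any single array left out, where at most 12 did.

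**Figure D5:**
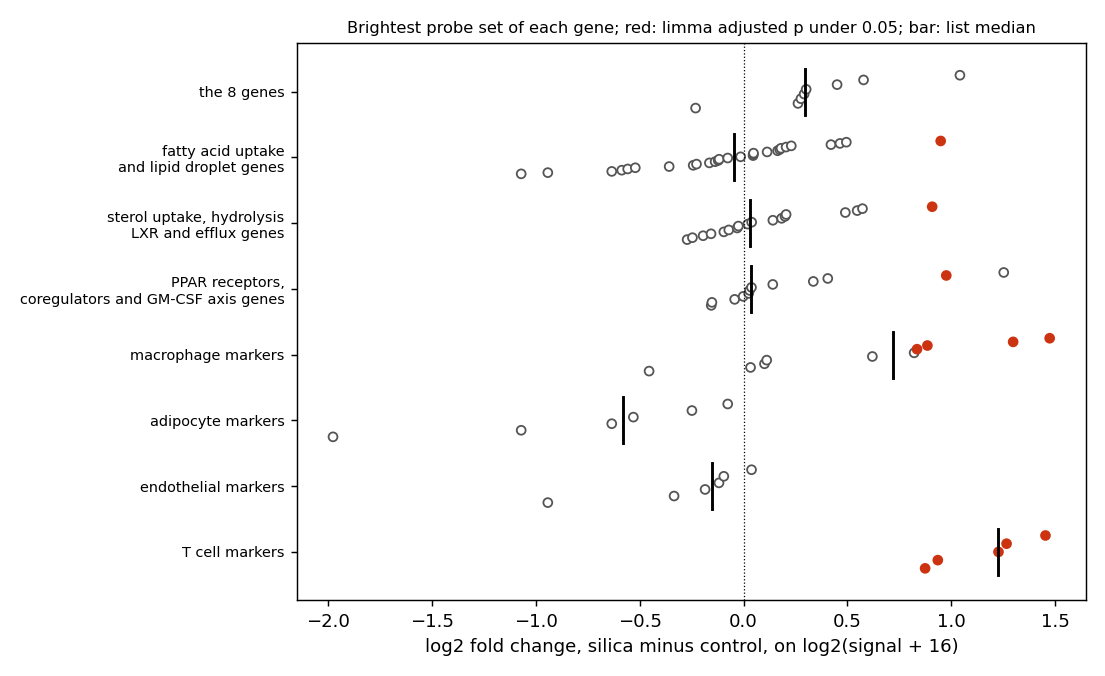
Log2 fold change (silica minus control, on log2(signal + 16)) of the brightest probe set of each gene, by list, with red points for a limma adjusted p under 0.05 and a bar at the median of the list. None of the 8 genes is red, 1 gene is red in each of the 3 pathway lists, and 4 of 10 macrophage and 5 of 5 T cell markers are red.

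For Plin2, the member with the smallest p, the genes with the most similar profile over the 6 arrays were sought among 10022 others, by the root mean square difference of log2 deviations from each gene's own control mean. The 3 nearest were C130050O18Rikl (0.032), the cholesterol synthesis gene Cyp51 (0.051) and Lgmn (0.052), which encodes the lysosomal protease legumain. Cyp51 had 1452, 1573 and 1310 in control and 2135, 2268 and 1999 in silica, and Lgmn 4540, 4646 and 4401 against 7292, 7249 and 6492. As in Plin2, control replicate 3 was the lowest control array and silica replicate 3 the lowest silica array in these 3 genes. Such a shared order is largely built into a choice by likeness over the same arrays. None of the 3 genes passed.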

How the data were processed

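Per the labels' protocols, lung RNA was extracted with a phenol-based reagent and biotin-labelled cRNA was made for 1-colour arrays. The deposited values are linear signal intensity values per probe set, with a mean of 500.14 to 500.15 on every array after trimming 2% at each end, so the authors had scaled each array by a factor. Which software summarised the probes is not stated there. Of 31099 probe sets, 57 array controls were left out. Genes were named from the platform annotation, with symbols updated by identifier to RefSeq (GRCr8): 20826 probe sets had 1 gene, 20758 of them matched by identifier, 436 had several and 9780 none. Groups came from sample titles.

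After adding 16 and taking log2, the 2 groups were compared by limma 3.58.1 in R 4.3.3 (lmFit and eBayes, no covariate, residual degrees of freedom 4 and prior ones 2.18), with Benjamini-Hochberg adjustment over 31042 probe sets. The fit was tested on simulated data. The log2 medians of the arrays ran from 7.38 to 7.42. With 3 arrays a group, precision is limited by their number. The 8 genes and the lists were chosen with earlier results of these data known. Named were all probe sets of the 8 genes, list genes past the threshold (up to 3 per marker list), 11 listed genes whatever their values, of which Msr1 was not analysed here, and the 3 genes most like the leading member. Outside this rule, further genes were named after their values were seen. They were Gpihbp1, Dgat2, Hilpda, G0s2, Vldlr, Slc27a4, Abhd5, Dgat1, the adipocyte markers and the macrophage markers that did not pass. Alternatives were other normalizations, pseudocounts of 1 and 64, filters, spread models, covariates, blocks and arrays left out.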

Additional observations from a re-analysis of the deposited data

How the results depend on the processing

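Of the 17 alternatives, leaving out the dimmer 50%, the intensity trend and the replicate block cannot change the estimate itself. Nor can averaging probe sets for Lpl, Fabp4, Pparg and Nr1h3, which have 1 probe set each. Where the estimate could change, none of the 8 genes reversed in sign. The count of their probe sets past the threshold, 0 with all arrays, was 3 with the dimmer 50% of probe sets left out (10.8% of all those tested), 5 with an intensity trend and robust spread and 1 with pseudocount 64, and 0 in every other alternative. Plin2 passed in these 3 settings (0.58, 0.58 and 0.57), Soat1 in the first and second (0.45), and Lpl (0.28) and Abcg1 (0.30) with the trend. Over all probe sets, the 335 calls became 1675 with the dimmer 50% left out, 1862 with the trend, 919 with pseudocount 64, 43 with pseudocount 1, 6 at an adjusted p under 0.01, 1 with the replicate block, and 0 with the RNA quality covariate or with control replicate 3 and silica replicate 1 both left out, and between 0 and 12 with single arrays left out (12 where silica replicate 1 was dropped, and 0 where silica replicate 3 or either of control replicates 1 and 3 was).

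The 1 call in each pathway list became 0 with the replicate block, pseudocount 1, the RNA quality covariate or an adjusted p under 0.01. It was also 0 with any single array left out, and with control replicate 3 and silica replicate 1 both left out. In the fatty acid list it was 6 (3 higher, 3 lower) with the dimmer 50% left out or with the trend, and 3 (1 higher, 2 lower) with pseudocount 64 or each gene's probe sets averaged. In the sterol list it was 3, 3 and 2 in the first 3 of these, and in the PPAR list 2 with the trend, all higher. With the RNA quality covariate Cd36 had 0.0051 and Csf2 0.39. With control replicate 3 and silica replicate 1 both left out Angptl4 had 0.22, Rxra 0.047 and Csf2 0.43, and with probe sets averaged Apoe had -0.031. With single arrays left out the values ran from -0.38 to 0.15 for Angptl4, -0.049 to 0.086 for Apoe, -0.20 to 0.024 for Nr1h2 and -0.39 to 0.25 for Csf2. The cause of these changes was not tested.

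The labels number replicates 1 to 3 in both groups. Deviations from the group means of same-numbered arrays correlated at 0.09, 0.04 and 0.09 over all probe sets and at 0.22, 0.15 and 0.28 over the brighter 50%, each array correlating best with its own number, a hint from the data and not the design. With the replicate block, where 1 of all probe sets passed, Fabp5, Ch25h and Csf2ra had an adjusted p of 0.153 each. No probe set of the 8 genes passed there. Alternatives for the 4 macrophage and 5 T cell marker calls were added after the data were seen. These calls were also 0 with control replicate 3 and silica replicate 1 both left out or at an adjusted p under 0.01. With pseudocount 1 they were 1 and 0. Signal limits the dim probe sets, such as Csf2rb, whose log2 fold change ran from 0.72 with pseudocount 64 to 1.68 with pseudocount 1.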
